A study of Mus musculus with 20 samples.

Results

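The MCM helicase and origin licensing genes examined here were Mcm2, Mcm3, Mcm4, Mcm5, Mcm6, Mcm7, Mcm10, Cdc6, Cdt1 and Gmnn, found by gene symbol in the deposited RNA-seq tables. They were 10 of the 37561 genes shared by all tables, each symbol occurring once. All 10 passed the filter on low values (a log2 normalized count that was typically 4 or more), as did 13608 genes in all, and 9 of the 10, all but Gmnn, also reached a log2 count of 8.

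The cells were mouse ESD3 (D3) embryonic stem cells of strain 129s2/SvPas, kept on mouse embryo fibroblast feeders with LIF and bFGF. The control line carried an shRNA against luciferase and the HPRT knockdown line an shRNA against HPRT, both delivered by a retroviral vector per the labels. Per the study's methods the vectors were lentiviral, the hairpin was directed against human HPRT and cells were selected with puromycin. Spherical neural masses, the neural precursor aggregates formed from these cells, were differentiated toward dopaminergic neurons and sampled daily from day 0 to day 4 and then on every other day until day 14. Each line gave 1 library per day from pooled RNA, 20 libraries in all.

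Licensing is the step that allows a stretch of DNA to be copied once per cell cycle. The origin recognition complex and Cdc6 bind the origin, Cdt1 brings in the ring of Mcm2 to Mcm7, and the loaded ring later becomes the motor of the replicative helicase. Mcm10 acts at the activation of that helicase, and geminin, the product of Gmnn, binds Cdt1 and blocks renewed loading until the cell has divided. Transcripts of these genes are known to be induced at the entry into S phase through E2F factors, and they are low in cells that have left the cell cycle, such as mature neurons.

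Hprt, the targeted gene, was lower in the knockdown library on all 10 days, with a same-day log2 ratio of knockdown over control between -5.00 and -2.53 and of -3.42 on day 6. Values below are such log2 ratios, or log2 levels relative to the control library of day 0, and errors are SDs over the 9 days tested, all but day 6. The deposited pairs hold no level of a gene against another gene, so the 10 genes can be compared in their ratios and courses only. The day-wise median ratio over all genes tested lay between -0.024 and 0.011. As these were bulk samples, fewer dividing cells and less RNA per cell cannot be told apart.

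The promoters of the genes are shown first, as a description, and their part in the ratios was not tested. RefSeq promoter windows (GRCm38.p6, 250 bases before to 50 after the transcript start) matched 8 of the 10 genes, all but Mcm4 and Gmnn. The letters searched for E2F were TTTGGCGC, TTTCGCGC, TTTCCCGC and TTTGCCGC on both strands. Of all 27025 genes with a window 2.6% held at least 1 of these, and of the 8 genes 6 did, namely Mcm3, Mcm5, Mcm6, Mcm7, Cdc6 and Cdt1. The 250 bases before the start are printed for the 4 genes with a match there, 5′ to 3′ on the gene's own strand, with matches in capitals.
Mcm5, chr8:75109259-75109508, plus strand: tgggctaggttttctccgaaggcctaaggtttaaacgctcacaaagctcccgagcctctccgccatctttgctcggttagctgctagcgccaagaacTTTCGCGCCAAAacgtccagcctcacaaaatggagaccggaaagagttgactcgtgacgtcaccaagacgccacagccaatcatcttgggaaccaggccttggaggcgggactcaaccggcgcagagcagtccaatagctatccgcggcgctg
Mcm6, chr1:128359706-128359955, minus strand: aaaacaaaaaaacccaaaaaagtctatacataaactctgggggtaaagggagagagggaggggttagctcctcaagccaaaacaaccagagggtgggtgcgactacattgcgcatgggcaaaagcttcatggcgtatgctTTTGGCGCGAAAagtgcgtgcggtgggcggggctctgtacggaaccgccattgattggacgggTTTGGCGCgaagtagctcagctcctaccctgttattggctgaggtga
Mcm7, chr5:138171884-138172133, minus strand: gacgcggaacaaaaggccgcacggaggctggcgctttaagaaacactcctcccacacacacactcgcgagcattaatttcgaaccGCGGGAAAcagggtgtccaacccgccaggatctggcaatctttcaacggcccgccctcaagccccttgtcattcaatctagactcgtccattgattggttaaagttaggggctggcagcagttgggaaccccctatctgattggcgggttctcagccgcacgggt
Cdc6, chr11:98907901-98908150, plus strand: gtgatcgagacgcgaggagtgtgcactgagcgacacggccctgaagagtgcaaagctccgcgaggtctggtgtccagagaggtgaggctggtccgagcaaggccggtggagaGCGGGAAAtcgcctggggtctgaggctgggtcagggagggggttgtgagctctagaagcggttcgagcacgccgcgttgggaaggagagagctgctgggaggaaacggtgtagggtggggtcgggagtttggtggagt

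In Mcm5 and Mcm6 matches on opposite strands overlapped, so that the run in capitals is longer than a single match, at -153 in Mcm5 and at -110 in Mcm6, counted from the transcript start. Mcm6 held another match at -47. The match of Mcm7 lay at -165 and that of Cdc6 at -138. Mcm7 held a further match 17 bases after its start, Cdt1 its only match at 33, and Mcm3 its matches at 20 and 39 after the start. No listed letters were found in the windows of Mcm2 and Mcm10, nor in that of a second start of Mcm7. The CCAAT letters were in 6 of the 8 genes against 41.1% of all genes, the GC box GGGCGG in 6 against 38.2%, and the cell cycle element CHR, searched as TTTGAA and TTCGAA, in 2 (Mcm2 and Mcm7) against 21.7%. A match of letters is a description of the window and not evidence of binding.

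The genes lie at separate places in the genome (NCBIM37, GENCODE). Mcm2 is on chromosome 6 (88833469 to 88848774, minus strand), Mcm3 on chromosome 1 (20793055 to 20810359, minus), Mcm4 on chromosome 16 (15623990 to 15637493, minus), Mcm5 on chromosome 8 (77633427 to 77652338, plus), Mcm6 on chromosome 1 (130228168 to 130256233, minus) and Mcm7 on chromosome 5 (138605811 to 138613650, minus). Mcm10 is on chromosome 2 (4910760 to 4933837, minus), Cdc6 on chromosome 11 (98769115 to 98785254, plus), Cdt1 on chromosome 8 (125091915 to 125097028, plus) and Gmnn on chromosome 13 (24843714 to 24853792, minus). All 10 are protein-coding. Exonic sequences of 50 bases, the read length, that also occur elsewhere in the genome made up 2.48% of those of Mcm5 and 0.749% of those of Mcm4, and none of those of the other 8 genes. The annotated exons of Mcm7 share 421 bases with the span of Ap4m1 and 64 with that of Cops6, both on the opposite strand. Mcm7 also hosts the microRNA genes Mir25 and Mir93, within its annotated exons, and Mir106b, outside them. Cdt1 lies within the annotated gene Gm20388 on its own strand.

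The first comparison asked whether the licensing genes differed between the lines through the course. All 10 were lower in the HPRT knockdown on each of the 9 days tested, with mean ratios from -1.36 (Mcm3) to -0.94 (Mcm4), that is 39.0% to 52.2% of the control. All 10 passed the test by limma over all genes, with adjusted p from 3.08e-05 (Cdt1) to 0.000217 (Mcm7), while 26.3% of all genes tested were called lower. The labels give 1 line of each kind, so the test measures the spread between days and not between lines. A ratio below 0 on 9 of 9 days occurred in 15.2% of all genes. A mean at least 2-fold lower with an adjusted p under the threshold was reached by 8 of the 10 genes, all but Mcm4 and Mcm7, and by 5.73% of all genes.

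**Figure D1:**
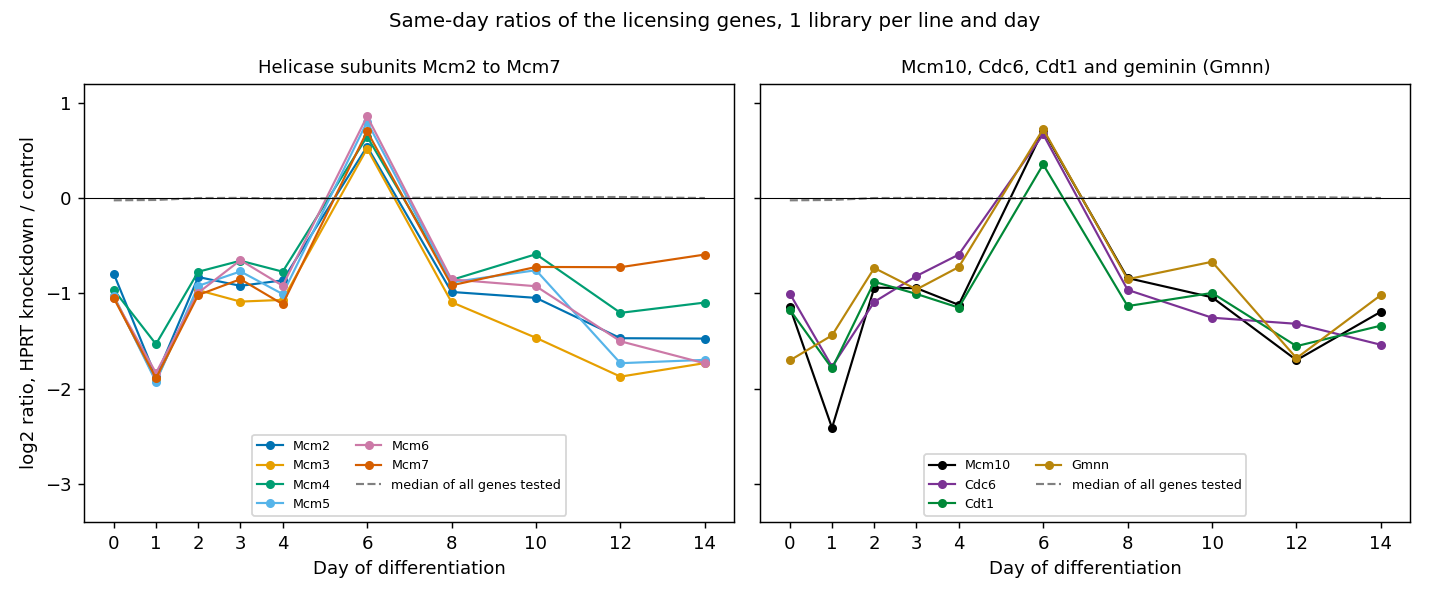
Same-day log2 ratio of HPRT knockdown over control (y axis) against the day of differentiation (x axis) for Mcm2 to Mcm7 on the left and for Mcm10, Cdc6, Cdt1 and Gmnn on the right, 1 point per gene and day, with the median of all 13608 genes tested as a dashed line. All 10 genes lie below 0 on every day but day 6, where all 10 lie above it, and the Mcm7 ratio is the highest of the 10 on days 12 and 14.

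Among the ring subunits, Mcm2, which carries histone-binding sequences, had ratios of -0.79, -1.88, -0.83, -0.92 and -0.86 on days 0, 1, 2, 3 and 4 and of -0.98, -1.05, -1.47 and -1.47 on days 8, 10, 12 and 14. The knockdown library was thus lower on each of these days, most on day 1, and the mean was -1.14 ± 0.38 (SD, n = 9 days; limma adjusted p 0.000111). Mcm3, the partner of Mcm5 in the ring, had -1.03, -1.91, -0.97, -1.09 and -1.07 on days 0 to 4 and -1.09, -1.47, -1.87 and -1.73 on days 8 to 14. Its mean of -1.36 ± 0.39 (limma adjusted p 5.62e-05) was the lowest of the 10 genes. Mcm4, which forms the catalytic core with Mcm6 and Mcm7, had its lowest ratio on day 1 (-1.53) and its highest on day 10 (-0.59), with a mean of -0.94 ± 0.30 (limma adjusted p 0.000113). Mcm5, the subunit beside Mcm2 at the gate of the ring, lay between -1.93 (day 1) and -0.76 (day 10), with a mean of -1.19 ± 0.46. Mcm6 lay between -1.83 (day 1) and -0.65 (day 3), with a mean of -1.16 ± 0.42. Mcm7 had -1.05, -1.89, -1.02, -0.85 and -1.11 on days 0 to 4 and -0.92, -0.72, -0.73 and -0.59 on days 8 to 14, with a mean of -0.99 ± 0.38. All 6 subunits had their lowest ratio on day 1, so the SDs hold swings between days that the subunits shared. They do not measure the spread of the differences between subunits, and the order of the means was not tested.

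Of the genes that load, restrain or activate the ring, Cdc6, the ATPase that recruits it to the origin, ranged from -1.77 on day 1 to -0.59 on day 4 and had a mean of -1.15 ± 0.36 (SD, n = 9 days; limma adjusted p 9.08e-05). Cdt1, the other loader, had -1.17, -1.79, -0.88, -1.01 and -1.15 on days 0 to 4 and -1.13, -0.995, -1.55 and -1.34 on days 8 to 14. Its mean was -1.22 ± 0.29, and this SD was the smallest of the 10. Gmnn, whose product opposes Cdt1, was lower like its target, at -1.70, -1.44, -0.73, -0.96 and -0.72 on days 0 to 4 and -0.85, -0.67, -1.68 and -1.02 on days 8 to 14. It was the only 1 of the 10 with its lowest ratio on day 0, and its mean was -1.09 ± 0.41 (limma adjusted p 0.000194). Mcm10 held the lowest value of any of the 10 genes, -2.41 on day 1, and lay between -1.70 and -0.84 on the other 8 days, with a mean of -1.26 ± 0.50. Loaders, inhibitor and motor subunits were thus all lower in the knockdown line.

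Read day by day, with 1 library per line and no test, the median ratio of the 10 genes began at -1.04 (day 0), reached -1.86 (day 1), and lay between -0.96 and -0.89 on days 2, 3, 4, 8 and 10. It was -1.53 on day 12 and -1.41 on day 14. All 10 genes were at least 1.5-fold lower on each of these 9 days. The share of all genes at least 1.5-fold lower was 19.4%, 24.3%, 17.1%, 15.7% and 16.3% on days 0 to 4, and 13.7%, 19.1%, 18.7% and 18.9% on days 8, 10, 12 and 14. The genes were therefore already lower in the neural masses of day 0, at the start of the sampled course, and the gap was widest on day 1. The embryonic stem cell stage before the neural masses has no library here.

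Day 6 stood apart. All 10 genes were higher in the knockdown library, from 0.35 for Cdt1 to 0.86 for Mcm6, with 0.80 for Mcm5, 0.72 for Gmnn, 0.71 for Mcm10, 0.70 for Mcm7, 0.67 for Cdc6, 0.64 for Mcm4, 0.54 for Mcm2 and 0.52 for Mcm3. Of the 10, 7 were at least 1.5-fold higher, against 10.9% of all genes. Among the 2064 genes that were lower on the other 9 days, 65.4% were higher on day 6, and this order of signs was found in 9.92% of all genes tested. Hprt was lower in the knockdown library on day 6 as well, as stated above. The day stands outside the tests, and keeping it left all 10 genes called lower.

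The next question was how the genes changed within each line. Levels were joined over the tables of consecutive days, and day 6 is again left out of tests. In the control line all 10 genes declined with time, with slopes of log2 level from -0.14 (Mcm5) to -0.098 (Cdt1) per day and limma adjusted p from 0.00089 (Gmnn) to 0.0063 (Mcm2). By comparison, 23.9% of all genes tested declined. On day 14 the control library held between 22.9% (Gmnn) and 36.6% (Cdt1) of its own day 0 level. With slopes on log2(day + 1) in place of day, 5 of the 10 passed the threshold in this line. On that scale 2144 of the 13608 genes tested declined.

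The decline was not even. Mcm2 in the control line stood at 0.37, 0.37, 0.52 and 0.62 on days 1 to 4, then fell to -0.38 on day 6, and had -0.060, -0.65, -0.52 and -1.62 on days 8, 10, 12 and 14. Thus it rose until day 4 and lost most of its level in the steps into days 6 and 14. Of the 10 genes, 8 were highest on day 4 in this line, Cdc6 on day 3 (0.54) and Gmnn on day 0. The share of all genes that were highest on day 4 is not given here. From day 4 to day 6 all 10 fell at least 1.5-fold, by a median of -0.92, as did 12.2% of all genes. From day 12 to day 14 all 10 fell at least 1.5-fold again, with a median of -0.87, as did 8.69% of all genes.

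**Figure D2:**
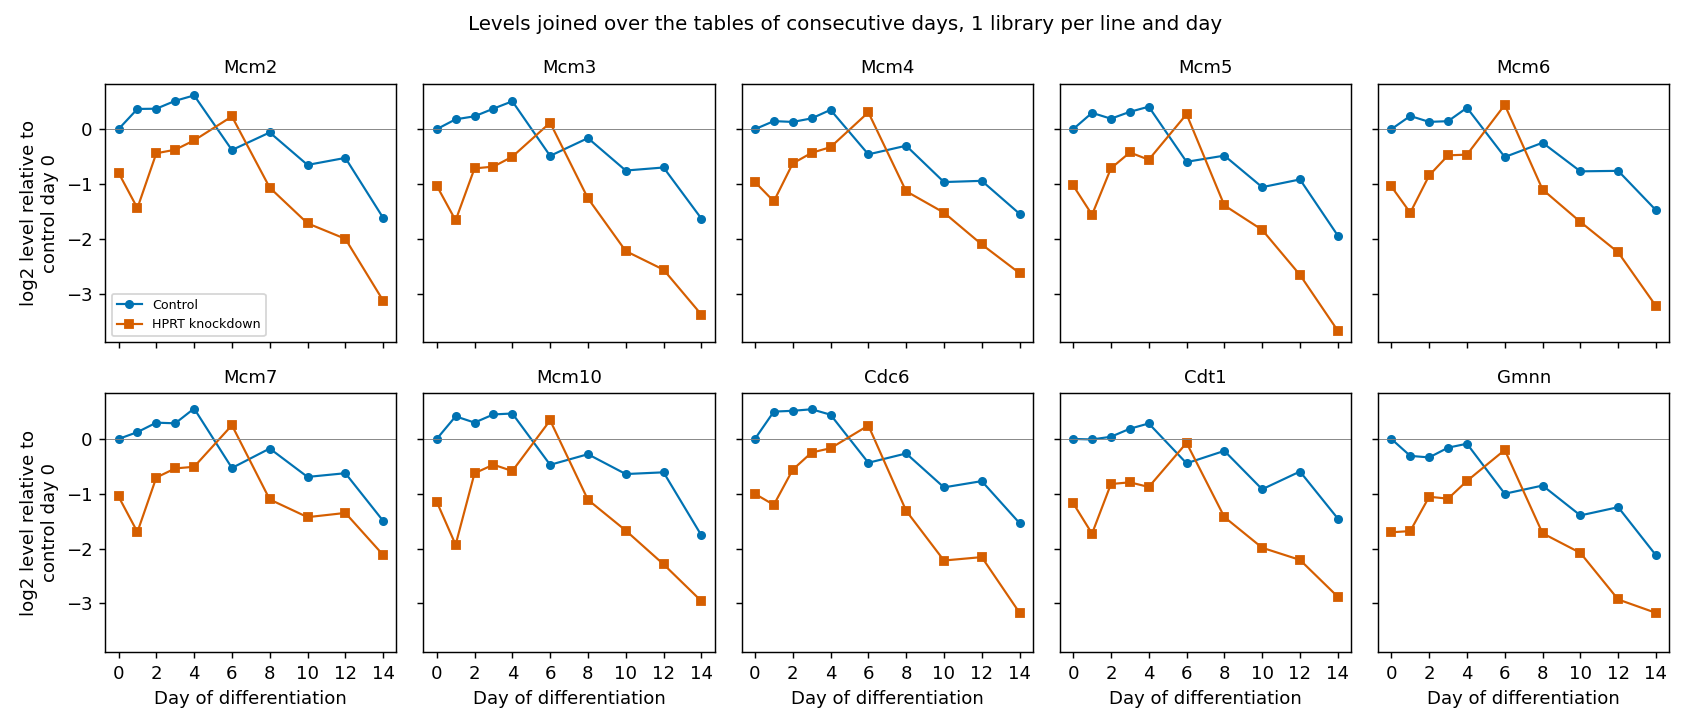
log2 level relative to the control library of day 0 (y axis) against day (x axis), 1 panel per gene, with control libraries as blue circles and HPRT knockdown libraries as orange squares, 1 library per line and day. The knockdown points lie below the control points on 9 days and above them on day 6, and both lines end at their lowest level on day 14.

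In the knockdown line the course had another shape. Mcm2 had levels of -0.79, -1.44, -0.44, -0.38 and -0.20 on days 0 to 4, of 0.23 on day 6, and of -1.07, -1.72, -2.001 and -3.13 on days 8 to 14. It thus dropped on day 1, was above its day 0 level on day 2, was highest on day 6 and fell from then on. All 10 genes were highest on day 6 and lowest on day 14 in this line. The share of all genes with the same highest and lowest days is not given here.

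From day 0 to day 1, 4 of the 10 genes fell at least 1.5-fold in the knockdown line (17.9% of all genes), with a median of -0.55, while the median of the control line rose by 0.21. From day 1 to day 2 all 10 rose at least 1.5-fold in the knockdown line (10.6% of all genes), from 0.63 for Gmnn to 1.304 for Mcm10, and the control line moved by a median of -0.0056. The wide gap of day 1 thus lay mainly in the knockdown library of that day. Into day 6, 7 of the 10 rose at least 1.5-fold (12.9% of all genes), with a median of 0.70. Into day 8 all 10 fell at least 1.5-fold (15.5% of all genes), by between -1.66 (Mcm5) and -1.30 (Mcm2), whereas the control line rose by a median of 0.21. In the last step, from day 12 to day 14, 8 of the 10 fell at least 1.5-fold (8.71% of all genes). Both lines therefore moved at day 6, in opposite directions.

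On day 14 the knockdown library held between 15.9% (Mcm5) and 47.7% (Mcm7) of its own day 0 level. By the slope of the level on time, 8 of the 10 genes declined in the knockdown line, all but Mcm7 and Mcm10, against 5.53% of all genes tested. The slopes of the 8 lay between -0.17 (Mcm5) and -0.11 (Cdt1) per day, with limma adjusted p from 0.027 (Cdc6) to 0.0466 (Mcm6). Mcm7 had a slope of -0.061 ± 0.030 (SE; limma adjusted p 0.196) and Mcm10 of -0.12 ± 0.041 (limma adjusted p 0.0836). These calls were close to the threshold. None of the 10 passed without day 2, without day 12, without day 14, with day 6 kept or on log2(day + 1), and 1 passed without day 10, 2 without day 3, 5 without day 4 and 3 with no filter. Among all 13608 genes tested, 312 declined without day 10, 437 without day 3 and 492 without day 4. With no filter 675 of 19041 genes declined.

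The difference in trend was tested as the slope of the same-day ratio. By limma 0 of the 10 genes passed after adjustment, whereas 14.0% of all genes tested did in either direction. At an unadjusted p under 0.05 there was 1, Mcm7, whose ratio rose by 0.051 ± 0.020 per day (SE; limma p 0.0298, adjusted p 0.112). Without day 1, 2 of the 10 passed, Mcm2 and Mcm3, both with a falling ratio. In that setting 1291 of the 13608 genes tested passed, 682 of them with a falling ratio. The lines were therefore not shown to differ in the pace of the decline.

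Within the ring the 6 subunits stayed close to each other until day 8 and spread afterward. The range of their ratios within a day was 0.24 to 0.43 from day 0 to day 8, then 0.88, 1.15 and 1.14 on days 10, 12 and 14. Mcm3 (-1.47) and Mcm4 (-0.59) took the ends of this range on day 10, and Mcm3 and Mcm7 did on day 12. On day 14 Mcm4 (-1.10) and Mcm2 (-1.47) also lay above the median of Mcm2 to Mcm6 (-1.70). Mcm7, singled out after its values were seen, lay within 0.20 of the median of Mcm2 to Mcm6 on each day from 0 to 8, and above it by 0.20, 0.78 and 1.104 on days 10, 12 and 14.

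This gap lay in the knockdown libraries. On day 14 the Mcm7 level was -1.49 in the control line, where the median of Mcm2 to Mcm6 was -1.62, and -2.12 in the knockdown line, where that median was -3.23. On day 12 the values were -0.62 and -0.76 in the control line and -1.35 and -2.25 in the knockdown line. No test was made, since Mcm7 was chosen for this pattern and each day has 1 library per line. Reads in the stretches shared with Ap4m1 and Cops6 cannot be assigned to a strand here. The ratio of Ap4m1 was 0.36 on day 12 and -0.25 on day 14, and that of Cops6 was 0.026 and -0.27. Their part in the Mcm7 values was not tested.

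**Figure D3:**
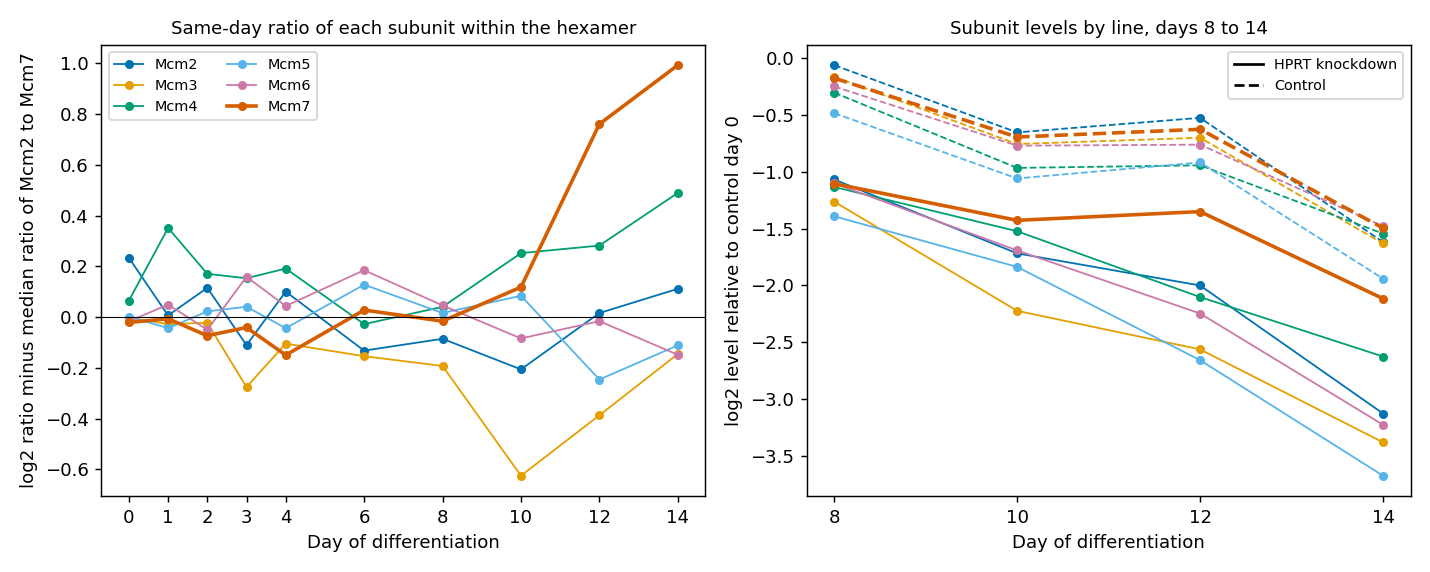
Left, same-day log2 ratio of each ring subunit minus the median of Mcm2 to Mcm7 (y axis) against day (x axis). Right, log2 level relative to control day 0 on days 8 to 14, with solid lines for the knockdown and dashed lines for the control, 1 library per line and day. Mcm7 (thick line) separates from the others on days 12 and 14, in the knockdown libraries.

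The other genes of DNA replication were described from lists by role. For comparison with each list's counts, 26.3% of all genes tested were called lower and 26.2% higher. Of 21 genes of origin binding and initiation that passed the filter, 20 were lower in the knockdown by limma and 0 higher, with a median ratio of -0.58 against 0.0056 over all genes tested. Orc1, the largest subunit of the origin recognition complex, had the lowest mean at -1.64 ± 0.91 (limma adjusted p 0.000982), with a ratio of 0 on 1 day. Its same-day ratios and the steps between neighboring days failed to add up by as much as 1.81. Orc4, another subunit, had the highest mean at -0.25 ± 0.16 (limma adjusted p 0.011), with a like mismatch of up to 0.308. Orc3 did not pass the filter. The 10 licensing genes all had lower means than this list's median.

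Of 30 genes of the replication fork, 25 were lower, 1 higher and 4 not called, with a median of -0.66. Dna2, a nuclease and helicase that trims flaps on the lagging strand, had -1.46 ± 0.49 (limma adjusted p 9.92e-05). Pold4, the small subunit of polymerase delta, was the 1 called higher, with a mean of 0.41 ± 0.17 (9 of 9 days above 0; limma adjusted p 0.00104) and a day 6 ratio of -1.22. Among 12 genes of the turnover of licensing factors, mainly ubiquitin ligase components, 10 were lower and 2 not called, with a median of -0.55. Skp2, which recognizes Cdt1 among other proteins, had -1.14 ± 0.42 (limma adjusted p 0.000163), and the scaffold Cul4a 0.10 ± 0.16 (limma adjusted p 0.222).

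Of 16 genes of the E2F and Rb families and their partners, 7 were lower, 2 higher and 7 not called, with a median of -0.30. Mybl2, which acts with the MuvB complex on cell cycle genes, was lowest at -1.84 ± 0.74 (limma adjusted p 0.000203). Rbl2, the p130 protein that represses such genes in resting cells, was highest at 0.81 ± 0.26, higher on 9 of 9 days (limma adjusted p 0.000137) and at -0.35 on day 6.

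Of 15 proliferation markers 14 were lower, with a median of -0.73. Aurka, a mitotic kinase, had -1.26 ± 0.40 (limma adjusted p 8.45e-05). Mki67, the gene of the Ki-67 antigen, had -0.22 ± 0.51 (limma adjusted p 0.273), with a ratio above 0 on 5 of 9 days. By day the list's median was -1.004 and -1.42 on days 0 and 1, between -0.41 and -0.37 on days 2, 3, 4, 8 and 10, -1.31 and -1.05 on days 12 and 14, and 0.42 on day 6, with all 15 above 0. The median of the 10 licensing genes was the lower on each of the 9 days tested, at -0.96 to -0.89 on days 2 to 4, 8 and 10. On day 0 the 2 medians were close, at -1.037 for the licensing genes and -1.004 for the markers. Both medians were low on days 1 and 12, and the part of dividing cells in the licensing values was not tested.

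**Figure D4:**
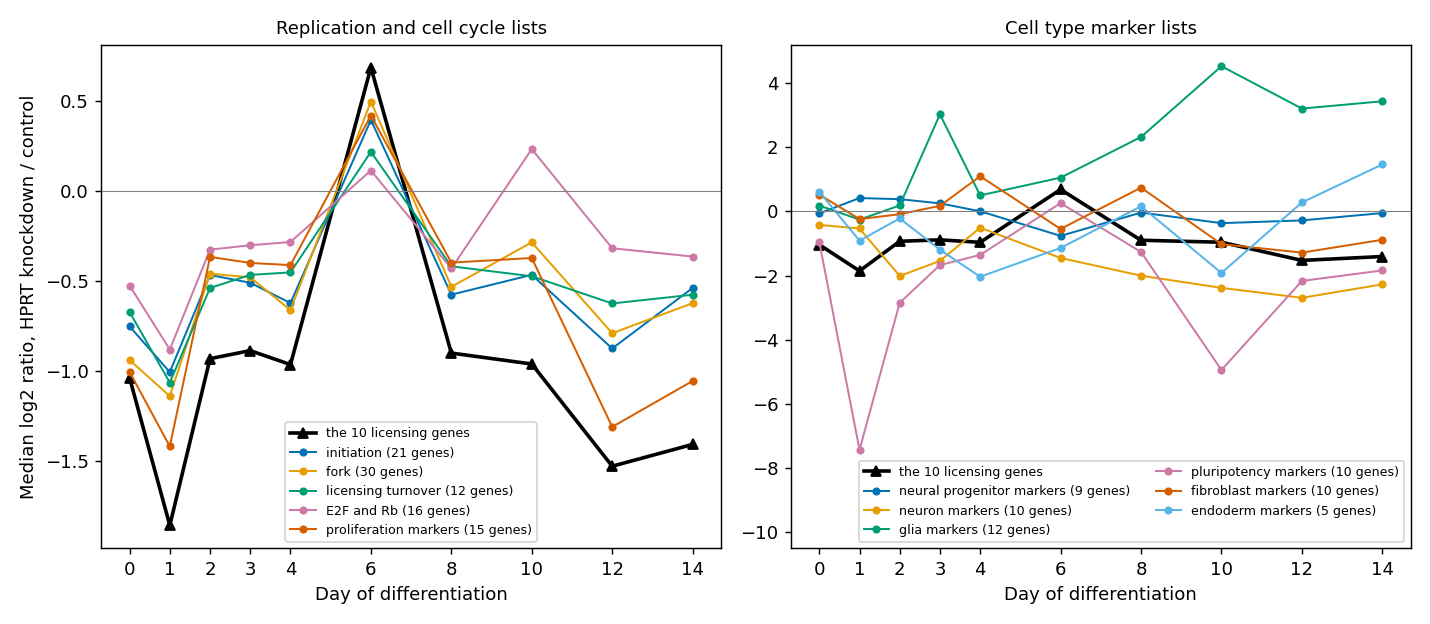
Median same-day log2 ratio of HPRT knockdown over control (y axis) against day (x axis) for the 10 licensing genes (black triangles), beside lists of replication and cell cycle genes on the left and lists of cell type markers on the right, with the number of genes that passed the filter. The licensing genes have the lowest median of the lists on the left on days other than day 6, and the highest on day 6.

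Markers of cell types moved as well, and their part in the licensing values was not tested. Among all genes tested 26.3% were called lower. Of 10 pluripotency markers all 10 were lower in the knockdown by limma, with a median of -2.71, a day-wise median between -7.43 (day 1) and -0.94 (day 0) and 0.26 on day 6. Zfp42 was lowest at -3.42 ± 2.67 and Klf4 highest at -1.06 ± 0.72. The same-day ratios and steps of Zfp42 failed to add up by as much as 0.198. Of 10 neuron markers 7 were lower and 0 higher, with a median of -1.55, from Nefl at -2.85 ± 1.301 to Gap43 at 0.030 ± 0.46 (limma adjusted p 0.873). Rbfox3 did not pass the filter. The neuron median was below 0 on all 10 days, day 6 (-1.45) included, unlike that of the licensing genes.

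Of 12 glia markers 7 were higher and 0 lower, where 26.2% of all genes tested were called higher, with a median of 1.75, from Mog at 0.41 ± 1.89 (limma adjusted p 0.567) to S100b at 3.63 ± 3.22. Neural progenitor markers were mixed, 3 higher and 2 lower of 9, from Pax6 at -1.36 ± 0.74 to Vim at 0.91 ± 0.29. Fibroblast markers, which feeder cells express, were 1 higher and 2 lower of 10, from Lum at -1.07 ± 1.15 to Pdgfra at 0.73 ± 0.69, and their day-wise median ratio lay between -1.28 on day 12 and 1.096 on day 4. Of 9 endoderm markers 5 passed the filter, all but Afp, Alb, Ttr and Apoa1, with 1 higher (Foxa2 at 1.24 ± 0.93) and 1 lower (Sox17 at -1.89 ± 2.40, limma adjusted p 0.0481). The same-day ratios and steps of Sox17 failed to add up by as much as 0.198. As to the label of the samples, from day 0 to day 14 the neuron markers changed by a median of 0.37 in the control line and -1.69 in the knockdown line, the pluripotency markers by -0.56 and -1.94, the glia markers by -1.76 and 2.22, and the fibroblast markers by 1.95 and 0.50. The fibroblast change in the control line, where the licensing genes declined, lay between 0.34 and 3.24. By limma slope 5 of the 10 markers rose there, as did 2681 of the 13608 genes tested.

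The genes whose levels were most like those of the ring were sought over the 20 libraries, which share the course of both lines. Among the highest values of Pearson r with the mean level of Mcm2 to Mcm7 were those of Exo1, a nuclease of mismatch and break repair (r = 0.995), Trip13, an ATPase of the spindle checkpoint (0.992), Timeless of the fork protection complex (0.989), Ccnf, the cyclin F of a ubiquitin ligase (0.989), and Recql4, a helicase of replication initiation (0.989). Over all genes tested the median r was -0.032, and 5.36% were above 0.9. These 5 genes had mean ratios from -1.25 ± 0.37 (Recql4) to -0.95 ± 0.37 (Timeless), and on day 6 between 0.60 and 0.74. The choice of these genes used the same libraries, so their ratios are a description.

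Each member was also correlated with the mean of the ring subunits other than itself over the same libraries. The r was 0.994 for Mcm2, 0.993 for Mcm6, 0.991 for Mcm5, Mcm4 and Mcm10, 0.990 for Mcm3, 0.985 for Cdc6, 0.984 for Cdt1 and 0.978 for Gmnn. Mcm7 had the lowest, at 0.956. Over the 10 same-day ratios alone r was 0.953 to 0.988 for 8 of the genes, 0.875 for Gmnn and 0.813 for Mcm7. By these values Mcm7, a subunit of the ring, was less like the other subunits than were the loaders and Mcm10, which are not part of it. The libraries are those in which Mcm7 was singled out, so its lower r is a description and no separate support. The order of these r was not tested.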

How the data were processed

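Per the study's methods, RNAs of a time point were pooled, TruSeq libraries were sequenced for 50 cycles, and reads were aligned by ELAND to NCBI37/mm9 in CASAVA 1.8.2 and normalized by the authors with DESeq in Avadis NGS. The authors deposited 28 tables of log2 values, 2 libraries each, normalized table by table and centred on the mean of the pair, so that a pair holds a log2 ratio and no level. Normalized counts of 1 or less had been set to a log2 value of 0, which understates ratios of low genes. Read depth is unknown, and only the ratio of the size factors of the same-day libraries was recovered (0.571 on day 3 to 1.47 on day 0, knockdown over control). Sequencing lanes were not used here. Groups and days were taken from the labels.

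The design had foreseen counts or per-length values. The filter on low values was therefore read from the rounding step of the single-precision values, whose median over the tables had to correspond to a log2 normalized count of at least 4. This left 13608 of 37561 genes and was tested on simulated tables, as were the fits. Ratios were taken within the table of each day. Levels were built by adding the steps of consecutive days within a line to the day 0 ratio. They differed from the same-day ratios by at most 0.12 (log2) for the 10 genes. The tables of days 3 and 4 did not close with their neighbors, unlike those of the 8 other pairs of neighboring days.

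Tests were limma (version 3.58.1, R 4.3.3; lmFit and eBayes) over the 13608 genes, adjusted by Benjamini-Hochberg and called under 0.05: the mean ratio over 9 days, and slopes on day of each line's level and of the ratio. Day 6 was left out of tests, as in the study's pathway analysis, and its values are given separately. Libraries of the same day were paired, as both lines were sampled then. Their deviations from the line means, correlated across genes, gave r from 0.13 to 0.41 on 8 of the 9 days and -0.032 on day 0. Days of a line are successive collections, and the labels give 1 line of each kind, so p-values measure the spread between days and not between lines. Single days and steps have 1 library per line and no test, and a difference of 1.5-fold was counted there. A p-value from 9 signs cannot go below 0.0039 in an exact sign-flip permutation test. Alternatives were other filters, day 6 kept, each day left out, no pairing, median centring, another time scale and the other tables for days 3 and 4.

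The 10 genes and the gene lists were chosen with earlier results of these data known. Beside the 10 genes, the text names from each list the genes with the highest and the lowest mean ratio, Hprt, and 5 of the 6 genes whose levels over 20 libraries correlated best with the mean of Mcm2 to Mcm7; the other is not reported here. Other genes are named as chosen after their values were seen. Gene positions are from GENCODE (NCBIM37), and promoter sequences are from RefSeq (GRCm38.p6). No protein sequences were used here.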

Additional observations from a re-analysis of the deposited data

Results flagged for a closer look

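The day 6 ratio stood far from the ratios of the other 9 days for all 10 genes by Dixon's test for 10 values, which by chance would pass in about 1 in 20 sets of values. The ratios on that day were 0.54 for Mcm2, 0.52 for Mcm3, 0.64 for Mcm4, 0.80 for Mcm5, 0.86 for Mcm6, 0.70 for Mcm7, 0.71 for Mcm10, 0.67 for Cdc6, 0.35 for Cdt1 and 0.72 for Gmnn, and the gap to the nearest other day made up 0.50 to 0.61 of each gene's whole range. The 10 genes share the libraries of that day, so these are not 10 separate cases. How many of all genes tested pass this test is not given here. Of the 2064 genes lower on the other 9 days, 65.4% were higher on day 6. The study described its day 6 data as appearing discrepant and left them out of its pathway analysis. In the control line the level of Mcm10 on day 14, -1.76, lay apart from its other 9 values, and in the knockdown line none of the 10 genes had such a value.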

How the results depend on the processing

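All 10 genes were lower and called under each alternative run for the ratio in which they were tested. Gmnn was not tested under the filter at a log2 count of 8. With no replicate block, so that the lines were not paired by day, 5829 genes differed and 10 of the 10 were called. Leaving out a day left between 6254 and 7265 genes differing.

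In the control line a slope on log2(day + 1) called 3929 genes and 5 of the 10, and leaving out a day gave 4621 to 6267 genes with all 10 called each time. In the knockdown line leaving out a day gave 171 genes (without day 14) to 2959 (without day 0) and 0 to 10 of the licensing genes, and log2(day + 1) gave 127 genes and 0 of the 10. With no filter 3 of the 10 were called there, and with day 6 kept 0. For the slope of the ratio, day 6 kept gave 1066 genes, and leaving out a day gave 605 (without day 12) to 1657 genes and 0 to 2 of the 10. The causes were not tested. No slope of the ratio of the 10 genes passed in the main test, and 5 of them changed sign in some setting: Mcm4 between -0.018 and 0.010 and Mcm6 between -0.049 and 0.00046 over the days left out, Mcm10 between -0.024 and 0.030, Cdt1 between -0.026 and 0.0044 and Gmnn between -0.012 and 0.036. On log2(day + 1) Mcm4 was at 0.034. The other tables for days 3 and 4 bear on the slope of the line concerned only, and changed no count of the 10 genes by over 1.5 times. Depth is unknown, so no counting error is given.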
